A study of Felis catus with 38 samples.

Results

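The 200 genes described here are those whose levels in feline oral tumours, before treatment, followed most closely the level of 1 very abundant gene, ENSFCAG00000040576. That gene is called the anchor below. The genes were chosen on the 19 Day 1 libraries alone. For each gene the read count was divided by the library total and expressed per 1000000 reads (CPM), and log2(CPM + 1) was correlated with 3 reference genes: the anchor, ENSFCAG00000004564 (the gene with the most reads in the table) and ENSFCAG00000042595. Of 26681 gene IDs, 12763 had a Day 1 mean log2(CPM + 1) of at least 2, and 3984 of these had their highest Pearson correlation with the anchor. After the reference genes and 3 further IDs had been left out, the 200 with the highest correlation among 3982 were taken. Correlations between the members and the anchor at Day 1 are therefore a description of the choice, not a finding.

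The biopsies came from tumours of the oral cavity (mucosal surface, labelled as tumour) of pet cats, and total RNA was sequenced. There were 19 libraries from Day 1, labelled pre-treatment, and 19 from Day 8, labelled with CS3D, from the same 19 cats. Day 1 and Day 8 libraries were paired by the matching numbers in their labels. CS3D is a cyclic oligonucleotide decoy for STAT3. By the design text of the study, the second biopsy preceded that day's dose. The libraries include no untreated cats at Day 8, so treatment, elapsed time and repeated biopsy cannot be told apart. The batch label was 1 for all libraries of cats 1 to 12 (11 cats, with no cat 6) and for Day 1 of cats 13 to 20, and 2 for Day 8 of those 8 cats, so batch and set of cats cannot be told apart either.

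STAT3 is a transcription factor that is switched on by cytokine and growth factor receptors, enters the nucleus and drives genes of survival, proliferation and immune signalling. It is often active in tumours of the oral lining. A decoy oligonucleotide carries the DNA sequence to which the factor binds and competes with its sites in the genome. In a bulk biopsy genes can vary together because they are used by the same cells, and here fewer cells of a type and less RNA per cell cannot be told apart. The table lists genes by ID only, and 0 of the IDs had a symbol in the reference used. The roles of the members, the markers of the cell types in the biopsies and the level of STAT3 are therefore not described.

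Library totals ranged from 10.6 to 22.6 M reads (M, 1000000) at Day 1 and from 11.4 to 20.5 M at Day 8. The libraries of cats 14 to 20 were shallower at Day 1 (at most 13.8 M) than those of cats 1 to 13 (at least 14.4 M), and that order of columns was used as a further split of the cats. The Day 8 library of cat 3 stood apart. It had 19.0 M reads but the fewest genes with a count of all libraries, 16687, and results that rest on it are given with and without it.

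The anchor was not lost in any tumour before treatment. At Day 1 it ranged from 3472 CPM in cat 20 through a median of 11709 CPM to 37409 CPM in cat 2, with a mean of 12900 ± 7205 CPM (SD, n = 19). At Day 8 it was nearly absent in 1 tumour, that of cat 3, with 5.30 CPM (101 reads) against 14389 CPM (310031 reads) at Day 1, a level 2713-fold lower. In the other 18 Day 8 libraries it ranged from 2527 CPM in cat 18 through a median of 9441 CPM to 18383 CPM in cat 2. The description of the anchor as lost in places thus rests on 1 Day 8 library.

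The anchor was lower at Day 8 than at Day 1 in 17 of 19 cats, cats 1 and 9 being the exceptions. In a fit over all genes with the cat as a block, its log2 change was -0.49 ± 0.38 (SE), which did not pass (edgeR quasi-likelihood test, adjusted p = 0.432). Without cat 3 the change was smaller, -0.33, but passed the threshold of 0.05 (adjusted p = 0.0456). Over the other alternatives its adjusted p ran from 0.296 to 0.972.

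**Figure D1:**
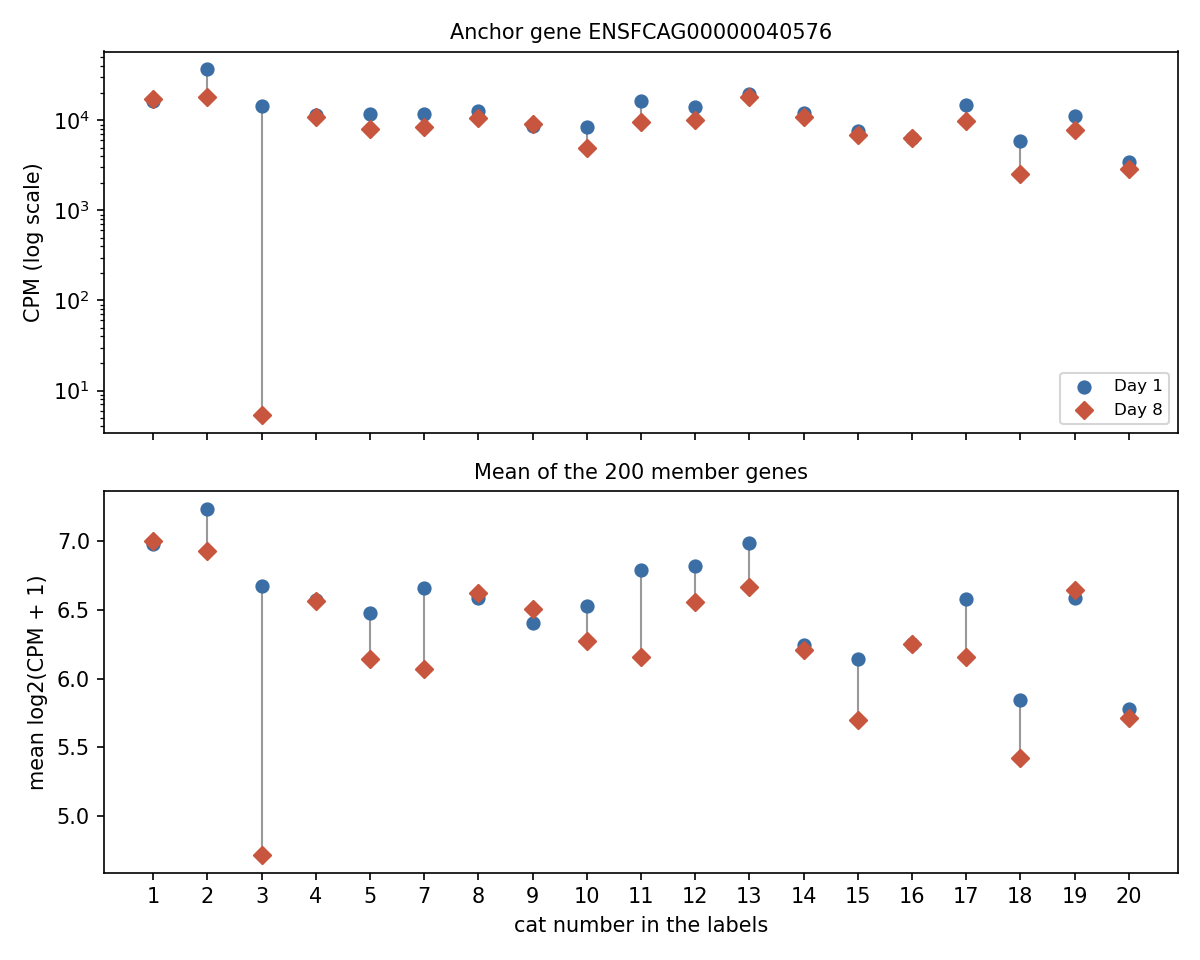
Level of the anchor in CPM on a log scale (top) and mean log2(CPM + 1) of the 200 members (bottom) in each cat at Day 1 (circles) and Day 8 (diamonds), with a line joining the biopsies of 1 cat. The anchor stays above 2527 CPM in every library but Day 8 of cat 3, where it is at 5.30 CPM and the members' mean is at its lowest, 4.72.

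The members spanned low to high abundance, with a median above that of the other genes. Their Day 1 means ran from 4.28 to 3040 CPM with a median of 89.0 CPM, against a median of 33.5 CPM for the other 12560 genes above the same minimum. Their summed share of a library's reads was 4.83 ± 1.48% before treatment and 4.07 ± 1.38% at Day 8 (SD, n = 19 each). At Day 1 the share ran from 2.43% in cat 20 to 8.85% in cat 2, and at Day 8 from 1.96% in cat 3 to 6.63% in cat 2. The share was lower at Day 8 in 13 of 19 cats.

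By choice, all Day 1 correlations with the anchor were high, from 0.607 through a median of 0.660 to 0.866. The border was not sharp. The last 5 genes taken had r from 0.608 to 0.607 and the next 5 had r from 0.606 to 0.604. Membership depended most on the tumours at the ends of the anchor's range. When the choice was repeated without the Day 1 library of cat 2, 103 of the 200 genes were chosen again, and without that of cat 20, 110. Leaving out any other Day 1 library kept between 158 and 194. Without both cats the members' Day 1 correlations with the anchor had a median of 0.586, from 0.296 to 0.830.

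The members also ran opposite to the most abundant gene, ENSFCAG00000004564. All 200 had a negative Day 1 correlation with it, with a median of -0.49. The rule asked that the anchor give the highest correlation of the 3, so a negative value here is partly fixed by the choice. Among the 7 cats 14 to 20 that median was -0.08.

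Day 8 libraries were not used to choose the genes, though they came from the same cats, and there the members still followed the anchor. Over the 18 Day 8 libraries without cat 3, all 200 members had a positive correlation with the anchor, from 0.098 through a median of 0.610 to 0.846. Of the other 12560 genes, 54.8% were positive and the median was 0.056. A correlation of at least 0.5 was reached by 162 members (81.0%), against 8.65% of the other genes. The anchor gave the highest correlation of the 3 reference genes for 194 members (97.0%), against 39.8%. All members were negative with ENSFCAG00000004564, so for them this compares the anchor with ENSFCAG00000042595 only. The latter was near the floor in those libraries, with a median of 0.666 CPM, from 0 to 58.1. The 200 genes chosen by the same rule for ENSFCAG00000042595 lay between the members and the other genes. Of these 200, 180 were positive with the anchor, with a median of 0.397, and for 122 (61.0%) the anchor gave the highest correlation. Their median correlation with ENSFCAG00000004564 was -0.45. Spearman's rho over the same libraries had a median of 0.556 for the members and 0.063 for the others. These values share libraries, depth and cats and are given as a description, with no p-value.

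With cat 3 included the distribution widened. The median over all 19 Day 8 libraries was 0.554, with values from -0.196 to 0.968, and 116 members (58.0%) reached 0.5 against 16.0% of the other genes. Without cat 3 and the 2 cats farthest from the anchor's median, cats 18 and 20, the median of the members was 0.475 and that of the other genes -0.015, and 83 members reached 0.5. On CPM scaled by TMM, a factor estimated from the bulk of the genes, the median over 19 libraries was 0.493.

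The relation also held within each part of the column order. Among cats 1 to 13 without cat 3, 11 libraries at Day 8, the median correlation of the members with the anchor was 0.517 and that of the other genes -0.0007. Among cats 14 to 20, 7 libraries, the medians were 0.509 and 0.096. For the sets that differ in batch label the members' medians were 0.547 in cats 1 to 12 without cat 3 and 0.620 in cats 13 to 20. The other genes' medians were 0.055 and 0.023.

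**Figure D2:**
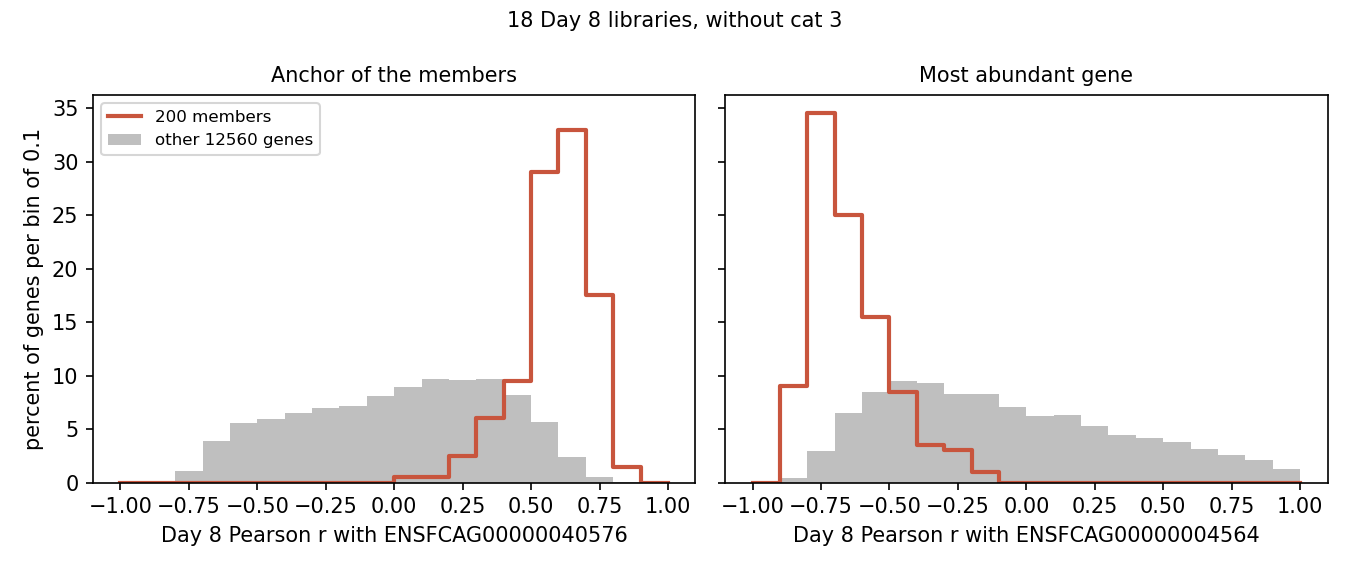
Distribution of Day 8 Pearson correlations over 18 libraries without cat 3, as the percent of genes per bin of 0.1, for the 200 members (line) and the other 12560 genes (bars), with the anchor (left) and with the most abundant gene (right). The members sit at high values with the anchor (median 0.610) and at low values with the most abundant gene (median -0.680), while the other genes spread around 0.056 and -0.147.

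The opposite relation to the most abundant gene was also seen at Day 8. Without cat 3 all 200 members had a negative correlation with ENSFCAG00000004564, with a median of -0.68, and 168 (84.0%) were at -0.5 or below, against 18.3% of the other genes. At Day 1 over the same 18 cats the median was -0.51 and 102 members (51.0%) were at -0.5 or below. For 131 members its size exceeded that of the correlation with the anchor. The mean of the members in each library correlated with the anchor at r = 0.831 and with ENSFCAG00000004564 at r = -0.890 over those 18 libraries. That gene took up to 100730 CPM, in cat 18 at Day 8, and a gene that takes more reads lowers the CPM of all others. Its part in these correlations was not tested.

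Day 8 correlations differed little with the rank at Day 1. Members ranked 1 to 50 at Day 1 had a median Day 8 correlation with the anchor of 0.624 without cat 3, those ranked 51 to 100 of 0.639, those ranked 101 to 150 of 0.596, and the last 50 of 0.585. The same rule applied to the 18 Day 8 libraries without cat 3 chose 200 genes of which 57 were members (28.5% of either list), and applied to all 19 it chose 29 of them (14.5%). The members also correlated among themselves at Day 8. The median over all pairs was 0.541 without cat 3, against 0.060 over 4000 other genes taken by the order of their IDs. The Day 1 median of 0.559 follows in part from the choice.

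Depth differed with the anchor at Day 1. The anchor had a median of 13446 CPM in cats 1 to 13 and 7708 CPM in the shallower cats 14 to 20. The mean of the members correlated with the library total at r = 0.635 over the 19 Day 1 libraries. By batch label of the cats' Day 8 libraries, r was -0.127 in the 11 cats 1 to 12 and 0.702 in the 8 cats 13 to 20. By the order of columns, a split chosen after the data were seen, it was 0.017 in the 12 cats 1 to 13 and 0.211 in the 7 cats 14 to 20. At Day 8 the members' mean correlated with the library total at r = -0.032 over 19 libraries and 0.243 over the 18 without cat 3. The part of depth in the choice of the members was not tested.

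**Figure D3:**
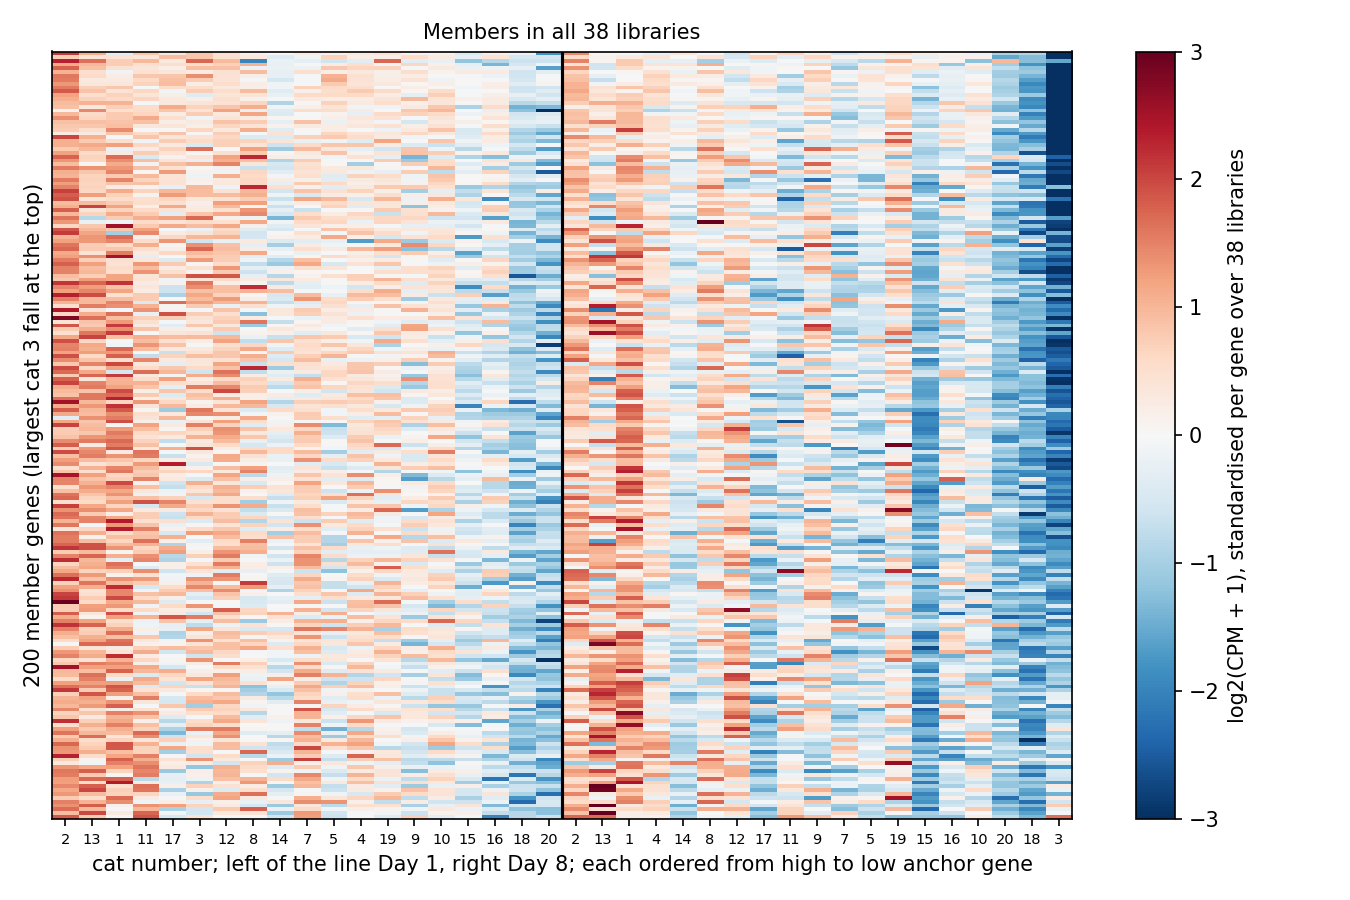
Levels of the 200 members in all 38 libraries, as log2(CPM + 1) standardised per gene (colour, in SD), with Day 1 left and Day 8 right of the line and libraries ordered on each side from high to low anchor. The first columns of each side (cat 2 highest at both days) are mostly above and the last columns (cats 18 and 20) mostly below the genes' means, and Day 8 of cat 3, last on the right, is the lowest, with the 27 members that were lower there by over 4 at the top.

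The comparison of Day 8 with Day 1 asked whether these genes changed in the treated cats. Small negative changes prevailed, but few genes passed the test. The change uses the Day 1 libraries on which the members were chosen, so it is not independent of the choice. With the cat as a block, 4 of the 200 members were lower and 0 higher at Day 8 (edgeR, adjusted p below 0.05). Of the 14996 genes tested, 1.93% were called lower and 5.11% higher, so the 2.00% of members called lower is at the background. DESeq2 and limma gave 0 members higher as well. At an unadjusted p below 0.05 there were 66 members, all lower (33.0%), against 11.6% lower among all genes.

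The direction was shared more widely than the calls. Of the members, 186 (93.0%) had a negative log2 change, against 53.9% of all genes tested. The median was -0.17, with a range from -0.76 to 0.13, and the median of all genes was -0.02. Those changes come from the fit scaled by TMM, while the counts of cats below use log2(CPM + 1) by library totals. On library totals more genes of the whole table were lower at Day 8 (69.5% in the edgeR fit). At least 12 cats were lower for 171 members (85.5%), against 50.1% of the other genes, and at least 15 for 57 members (28.5%), against 14.2%. At least 17 cats were lower for 4 members (2.00%), against 1.96%, and no member was lower in all 19. Since members vary together, these shares do not count independent genes.

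**Figure D4:**
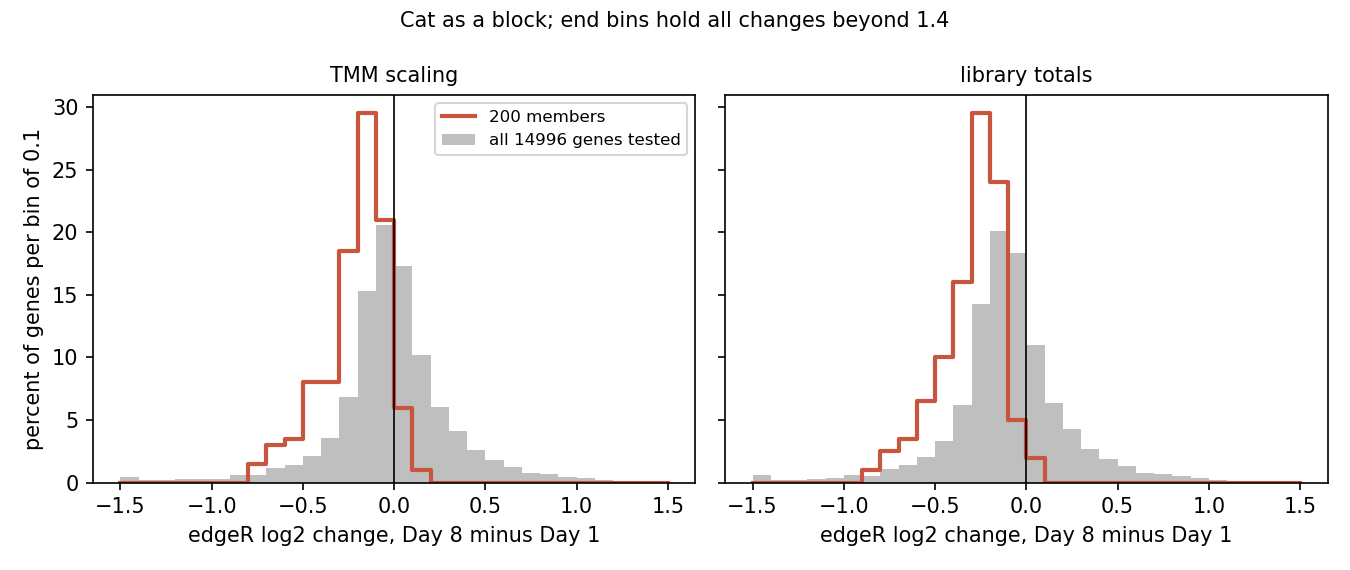
Distribution of edgeR log2 changes, Day 8 minus Day 1, as the percent of genes per bin of 0.1, for the 200 members (line) and all 14996 genes tested (bars), with TMM scaling (left) and with library totals (right). Most members lie left of 0 in both (93.0% and 98.0%), with medians of -0.17 and -0.26, and all genes centre on -0.02 and -0.11.

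The count of calls moved with the tool and the scaling. DESeq2 called 22 members lower (background 5.71%) and limma 8 (background 3.06%). With library totals in place of TMM, edgeR called 40 lower (20.0%), where the background was 8.26%. In that fit 575 genes of the table were higher and 1239 lower, against 767 and 290 with TMM. Without cat 3 edgeR called 6 members lower (background 1.52%), the median change was -0.13 and 183 were negative. With a batch term beside the block, which leaves the day effect to cats 1 to 12, 0 members were called. That fit called 0 of all 14996 genes, so its count says nothing particular to the members. There 51 members had an unadjusted p below 0.05, all lower (25.5%), against 7.43% lower among all genes.

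Among the members that fell was ENSFCAG00000029103, which was also the member with the highest Day 1 correlation with the anchor. It ranged from 21.3 CPM (cat 20) through a median of 32.3 to 68.9 CPM (cat 2) at Day 1. At Day 8 it ranged from 10.0 CPM (cat 3) through 24.6 to 43.3 CPM (cat 2). The days overlapped widely, with means of 33.9 ± 10.5 and 25.7 ± 7.68 CPM (SD, n = 19 each), but it was lower at Day 8 in 16 of 19 cats. Its log2 change was -0.33 ± 0.09 (SE; edgeR, adjusted p = 0.0406). The call was lost with limma, without the filter on low counts and when any 1 of 10 cats was left out (adjusted p up to 0.0767 in those fits). It was also lost with a batch term beside the block (edgeR, adjusted p = 0.135), in both fits without the block (0.438 and 0.841) and in each of the 4 subsets of cats (0.132 to 0.660). Of these fits, only that within cats 14 to 20 called any gene of the table. At Day 8 it followed the anchor with r = 0.698 without cat 3.

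ENSFCAG00000030129 fell with a call that held whichever cat was left out. It ranged from 111 CPM (cat 15) through a median of 165 to 254 CPM (cat 2) at Day 1, and from 55.9 CPM (cat 3) through 132 to 201 CPM (cat 1) at Day 8. The means were 169 ± 37.4 and 132 ± 41.7 CPM (SD, n = 19 each), and it was lower in 17 of 19 cats. Its log2 change was -0.31 ± 0.08 (SE; edgeR, adjusted p = 0.0259). With a batch term the change was -0.39 but did not pass (adjusted p = 0.0953), and without the block it was -0.29 (edgeR, adjusted p = 0.481). The call was also lost with a batch term in place of the block and in each subset of cats, where no member passed. Its Day 8 correlation with the anchor without cat 3 was 0.464.

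No member passed in the upward direction. The positive changes with the smallest p were 0.13 ± 0.08 (SE) for ENSFCAG00000030667 (edgeR, adjusted p = 0.325) and 0.08 ± 0.07 for ENSFCAG00000025038 (edgeR, adjusted p = 0.490). The first had means of 79.4 ± 17.0 CPM at Day 1 and 81.4 ± 17.7 CPM at Day 8 (SD, n = 19 each) and was higher in 11 of 19 cats. The second had 570 ± 133 and 573 ± 160 CPM and was higher in 10. The sign of the second changed with library totals and in cats 14 to 20 alone.

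The change of the members differed between cats. The mean change of the 200 members in log2(CPM + 1) ran from -1.96 in cat 3 through a median of -0.26 to 0.10 in cat 9, and it was below 0 in 14 of 19 cats. The mean over cats was -0.31 ± 0.46 (SD, n = 19), and without cat 3 it was -0.22 ± 0.23 (SD, n = 18). The other genes had a mean of -0.09 ± 0.11 on the same scale, and the members were below them in 12 of 19 cats. After cat 3 the lowest mean changes were in cats 11 and 7, at -0.63 and -0.59. In cats 1, 8, 9, 16 and 19 the members' mean was above 0.

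ENSFCAG00000004564 rose over the same interval, by 1.42 ± 0.27 on the log2 scale (SE; edgeR, adjusted p = 0.00625), and was higher in 16 of 19 cats. In cats 3, 11 and 7, where the members' mean change was lowest, its log2(CPM + 1) changed by 2.32, 3.19 and 2.59. In cats 20 and 16 it changed by 3.46 and 2.09 while the members' means changed by -0.06 and 0.0007. The 200 genes chosen by the same rule for ENSFCAG00000004564 had 184 called higher and 0 lower, and those chosen for ENSFCAG00000042595 had 1 higher and 3 lower. Both comparisons share all libraries with that of the members.

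The change did not pass a test of difference between the sets of cats. The mean change of the members was -0.38 ± 0.58 in cats 1 to 12 (SD, n = 11), or -0.22 ± 0.26 without cat 3 (n = 10), and -0.21 ± 0.21 in cats 13 to 20 (n = 8). The interaction of day with that set called 0 members and 0 genes in all (edgeR), with 6 members and 399 genes at an unadjusted p below 0.05. For cats 14 to 20 against 1 to 13 it again called 0, with 10 members and 662 genes. The day effect fitted within cats 1 to 12 alone called 0 members and 0 genes in all (edgeR). There 39 members were lower at an unadjusted p below 0.05 (19.5%), against 6.16% of all genes. Within cats 13 to 20 it also called 0 members and 0 genes in all. In that set 9 members were lower at an unadjusted p below 0.05 (4.50%), against 5.05% of all genes.

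In cat 3 part of the members were nearly absent at Day 8, as the anchor was. There 196 of 200 were lower at Day 8 and 4 higher, and the changes ran from -8.60 through a median of -1.25 to 0.90 on the log2(CPM + 1) scale, against a median of -0.32 for the other genes. A level lower by over 4, or 16-fold on that scale, was seen in 27 members (13.5%), against 1.66% of all 12763 genes above the minimum. A gene of low abundance at Day 1 cannot be so much lower on that scale. The members were more abundant than the other genes, so these shares do not compare genes of like abundance. No member was so much lower in any of the other 18 cats, in which between 0 and 40 other genes did (40 in cat 16). These are single libraries with no replicate biopsy, so the difference in cat 3 has no replicate check. The libraries of cat 3 were also the least alike of all pairs. Their deviations from the day's mean correlated at 0.367, against a median of 0.618 over the pairs.

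The 27 were not set apart by a gap. The number of members lower by over 3, 4, 5, 6, 7 and 8 in cat 3 was 37, 27, 24, 14, 9 and 4. At Day 1 the 27 had a median of 235 CPM in cat 3, and at Day 8 a median of 2.15 CPM, from 0.0525 to 15.9. For all 27 the Day 8 library of cat 3 was the lowest of the 19. That follows in large part from their choice by the fall in this library. At Day 1 cat 3 had been in the middle of the order for these genes, with a median rank of 8 of 19.

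The same 27 genes followed the anchor in the other tumours. Their Day 8 correlations with it over the 18 libraries without cat 3 ran from 0.324 through a median of 0.686 to 0.794. They were also the more variable members, with a median SD of 0.73 over the Day 1 libraries against 0.40 for the other 173. Their median change over the other 18 cats was -0.371, against -0.178 for the other 173. The group was chosen by its change in cat 3, and no test was made on it. ENSFCAG00000004564 went from 14060 to 70315 CPM in the same tumour.

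**Figure D5:**
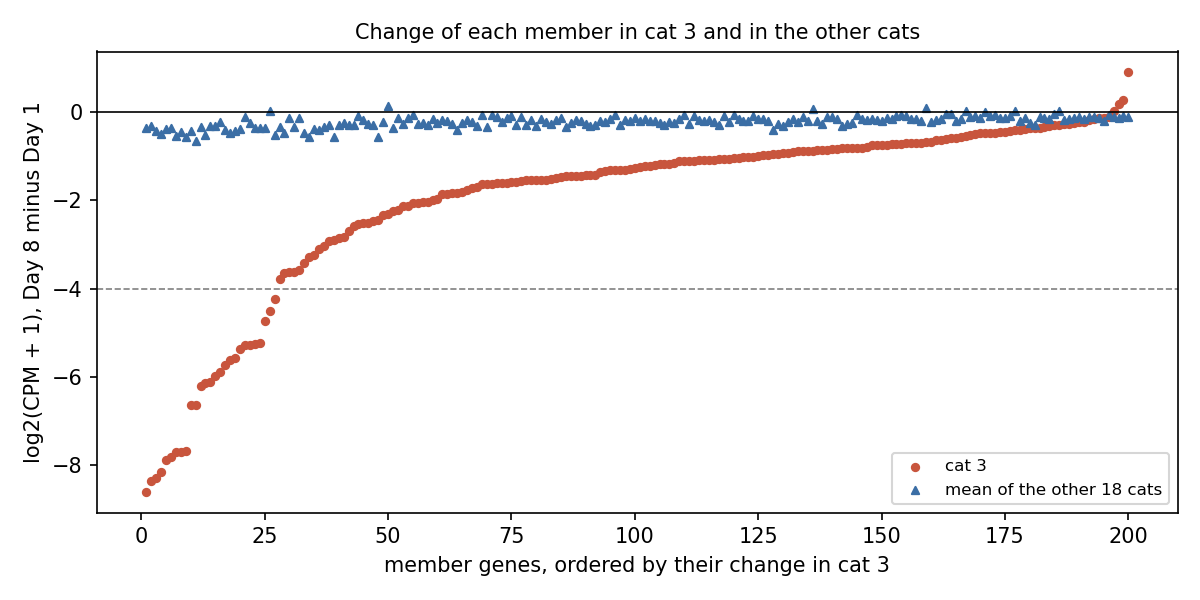
Change of each of the 200 members, Day 8 minus Day 1 in log2(CPM + 1), in cat 3 (circles) and as the mean of the other 18 cats (triangles), with members ordered by their change in cat 3 and a dashed line at -4. In cat 3 the changes run from -8.60 to 0.90 with 27 below the line, while the means of the other cats run from -0.64 to 0.13.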

How the data were processed

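Total RNA of 38 biopsies was sequenced. The authors deposited a table of raw read counts, whole numbers per gene and library. The submitters' processing notes name HISAT2 2.0.5 and featureCounts. Genome build, annotation and strand setting were not stated in the labels or headers read, and overlapping or near-identical genes cannot be separated.

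Members and lists were chosen with earlier results of these data known. CPM used library totals, and log2 values a pseudocount of 1 CPM. Counts filtered by filterByExpr (minimum count 10, 14996 genes, all 200 members kept) were scaled by TMM and fitted with edgeR 4.0.16 (R 4.3.3, robust quasi-likelihood, cat as a block, no batch term), with Benjamini-Hochberg adjustment over all genes and a threshold of 0.05. DESeq2 1.42.0, limma 3.58.1 (voom with quality weights), other scalings, filters, designs, subsets of cats and choices of members were alternatives. The fit was also run on simulated counts in which genes were drawn independently. The changes set there were larger than those of the members, so that run does not check the calls given here.

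Per the labels, Day 1 and Day 8 libraries carry matching numbers. In all 19 matching pairs the deviations from the day's mean correlated at over 0.1, from 0.367 (cat 3) to 0.899 (cat 1), against a median of -0.044 between numbers. Of the Day 1 libraries 19, and of the Day 8 libraries 18, correlated best with their own number. The numbers were therefore taken to pair the biopsies. The named genes were to be the reference genes and the members with the largest passing changes in at least 12 cats, or, where none passed, the smallest p. With 0 of the IDs matched to a symbol, 2 IDs per direction are given, and the planned lists of pathway and cell type genes could not be computed. No sequence is shown for the same reason. Each cat gave 1 biopsy per day. With the cat as a block, p-values therefore rest on the spread between cats of the change from Day 1 to Day 8. Differences between biopsies of 1 tumour are part of that spread and cannot be separated from it.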

Additional observations from a re-analysis of the deposited data

How the results depend on the processing

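The count of members called lower was 4 with edgeR and the cat as a paired block. It was 0 in both fits without the replicate block (with and without a batch term), with block and batch term, and within cats 1 to 12, 13 to 20, 1 to 13 or 14 to 20 alone (the last split chosen after seeing the data), where fewer samples enter. Those fits called 0 genes of the whole table in either direction, except the fit within cats 14 to 20, which called 2 higher and 27 lower. Their counts of 0 are therefore not particular to the members. Brackets below hold all genes called lower, which were 290 of 14996 in the main fit. The member count was 2 without the low-count filter (168 of 23589) and 5 with RLE size factors (291). It was 8 with limma (459), 9 with the library total as covariate (498), 22 with DESeq2 (857) and 40 with library totals (1239). With 1 cat left out the member count ran from 2 (without cat 2, 11, 12, 13 or 17) to 9 (without cat 16 or 19), and it was 7 without cat 14. All genes called lower then ran from 148 (without cat 5) to 359 (without cat 1). With 400 members the member count was 9. With members chosen without 1 Day 1 library it ran from 3 to 15, with 15 without cat 20 and 7 without cat 8 or 17. The count called higher was 0 throughout these fits, but 1 with members chosen by Spearman's rho, 1 with 400 members, and 0 to 1 with members chosen without 1 Day 1 library. The change of ENSFCAG00000025038 reversed to -0.0064 with library totals and to -0.013 in cats 14 to 20. The cause was not tested for these. The median Day 8 correlation with the anchor (0.554) ran from 0.493 to 0.675 over the other settings and from 0.544 to 0.610 with 1 cat left out, and was 0.475 without cats 3, 18 and 20. With members chosen without 1 Day 1 library it ran from 0.510 to 0.587. The mean change of the members (-0.31) ran from -0.38 to -0.19, and from -0.33 to -0.22 with 1 cat left out. Lists chosen by Spearman's rho shared 115 of 200 members, on TMM-scaled CPM 164, with a minimum mean of 1, 196, and of 4, 186.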
